A study of Mus musculus with 12 samples.

Results

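Versican (Vcan) is a large chondroitin sulfate proteoglycan of the extracellular matrix, and Adamts1, Adamts4, Adamts5 and Adamts9 encode secreted metalloproteases that cut its core protein. These 5 genes were matched by symbol among the 32285 genes counted in single liver cells of neonatal mice, and all 5 were found. Vcan was chosen by its UMI counts in monocytes and neutrophils, which were higher in anemic mice, and Adamts1 and Adamts9 were chosen by their levels in an endothelial group, so those values are given as descriptions without a test. Vcan in granulocyte progenitor-like cells and in whole libraries is also given without a test. Other differences between anemic and control mice were tested where an adjusted p is given.

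Livers were taken from C57BL6/J pups on postnatal day (P) 11, 6 with phlebotomy-induced anemia (PIA) and 6 controls, with 1 library per mouse. PIA pups had lost 20 µL of blood per g of body weight from the facial vein on P2, P4, P6, P8 and P10, and controls had received a needle stick that drew no blood. The labels say that pups within a litter were randomised, but not which pups shared a litter. The tissue was digested with enzymes, passed through a filter and spun slowly before counting, so the cell mixture is that of the suspension.

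Versican binds hyaluronan at one end and carries chondroitin sulfate chains along its length, and with link proteins it forms a hydrated matrix around growing tissues, vessels and inflamed sites. ADAMTS proteases cleave the chain-bearing region and release a bioactive N-terminal fragment, and Timp3 is their best known tissue inhibitor. In the liver, versican is known from matrix-producing mesenchymal cells and from monocytes, and ADAMTS proteases from endothelial and perivascular cells.

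In the GENCODE M21 annotation of GRCm38, Vcan (ENSMUSG00000021614) lies at chr13:89655312-89742509 on the minus strand. Adamts1 (ENSMUSG00000022893) at chr16:85793827-85803113 and Adamts5 (ENSMUSG00000022894) at chr16:85856173-85901828 are neighbours on the minus strand, 53.1 kb apart. Adamts4 (ENSMUSG00000006403) lies at chr1:171250421-171260637 on the plus strand, and Adamts9 (ENSMUSG00000030022) at chr6:92772699-92943492 on the minus strand. Promoters of 3 of the 5 genes were found in the RefSeq table of GRCm38.p6, those of the gene chosen for its change in anemia and of both endothelial genes. Adamts4 and Adamts5 had no entry. The 250 bases before each RefSeq start are shown 5′ to 3′ on the gene's strand, with the TATA box letters TATAAA and the GC box letters GGGCGG or their reverse complement CCGCCC in capitals. They lie at chr13:89742513-89742762, chr16:85803114-85803363 and chr6:92943535-92943784, all minus strand.
Vcan: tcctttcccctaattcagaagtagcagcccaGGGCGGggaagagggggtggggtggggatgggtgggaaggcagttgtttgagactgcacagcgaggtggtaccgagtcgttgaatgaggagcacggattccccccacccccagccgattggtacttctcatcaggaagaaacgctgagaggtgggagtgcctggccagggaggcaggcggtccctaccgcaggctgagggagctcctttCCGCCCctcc
Adamts1: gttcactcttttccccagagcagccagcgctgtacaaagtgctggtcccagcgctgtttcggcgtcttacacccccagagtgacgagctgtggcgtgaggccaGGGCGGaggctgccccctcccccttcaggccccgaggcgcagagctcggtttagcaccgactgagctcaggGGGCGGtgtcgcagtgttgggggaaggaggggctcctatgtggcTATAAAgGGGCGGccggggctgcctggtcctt
Adamts9: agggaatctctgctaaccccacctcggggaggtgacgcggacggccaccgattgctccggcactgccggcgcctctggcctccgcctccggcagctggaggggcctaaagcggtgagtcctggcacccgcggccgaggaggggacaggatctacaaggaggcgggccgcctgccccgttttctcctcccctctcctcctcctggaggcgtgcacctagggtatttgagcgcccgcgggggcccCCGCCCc
The windows were GC-rich, with 62.4% G and C for Vcan, 65.6% for Adamts1 and 71.2% for Adamts9, against a median of 52.4% over 32851 promoters of the same length. Only the Adamts1 window held TATAAA, 32 bases before the start, as did 12.4% of all promoters on either strand. A GC box was found in each of the 3 windows and in 32.7% of all promoters. It came 2 times for Vcan (219 and 10 bases before the start), 3 times for Adamts1 (147, 76 and 25 bases) and once for Adamts9 (7 bases). CCAAT or its complement ATTGG was found only for Vcan, 103 bases before the start, as in 33.8% of all promoters. The letters searched for AP-1 (TGACTCA, in 4.46% of all promoters) and the cAMP response element (TGACGTCA, 1.55%) were not in these 3 windows on either strand. Of the 2 forms of the hypoxia response core, ACGTG (16.6%) was in none of them, and GCGTG (28.2%) was found for Adamts1, 158 bases before the start, and for Adamts9, 44 bases before the start. These matches describe letters and not binding.

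Libraries held 46252146 to 74545930 unique molecular identifiers (UMIs, each a captured mRNA molecule) over all barcodes. Per library 14184 to 21186 cells were kept, 206146 cells in all. Of 201108 distinct barcodes, 4951 occurred in more than 1 library, and pairs of libraries shared between 0.36% and 0.694% of the smaller library's barcodes. Classes were rebuilt from marker genes, with the 5 genes kept out of the clustering, and are written as X-like; 27532 cells (13.4%) stayed unnamed. The libraries anemia 2 and anemia 3 stood apart, with 4604 and 2104 monocyte-like cells against 242 to 472 in the other 10, and with 718 and 867 sinusoidal endothelial-like cells against 1565 to 2641. Results that rest on them are given with and without them. By sex-linked RNA, 2 controls and 4 anemic mice were male and the others female, an uneven split. Hepatocyte RNA was lower and erythroid RNA higher in anemic mice in every class in which a difference is given below. In the sinusoidal endothelial-like class, for example, the 8 summed hepatocyte markers had a median of 2389 CPM (counts per 1000000, the gene's UMIs scaled to 1000000 UMIs of the class) in controls and 1516 in anemic mice, with 0 of 8 higher in anemia. The 9 erythroid markers there had medians of 2092 and 5777, with 8 of 9 higher. Their part in the results was not tested.

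Vcan was mainly a gene of mesenchymal and monocytic cells, with 11759 UMIs in 5182 cells. Its level was highest in fibroblast-like cells, at 360 ± 58.5 CPM (SD, n = 12 mice), above smooth muscle-like cells in 12 of 12 mice. These 2 classes were not cleanly apart, however. Of 2341 smooth muscle-like cells, 1835 lay in cluster 33, led by the fibroblast marker Mfap4. With coarser clusters 502 cells were named smooth muscle-like and 3083 fibroblast-like. Smooth muscle-like cells followed with 118 ± 21.6 CPM, monocyte-like cells with 89.2 ± 59.3 and mesothelial-like cells with 48.2 ± 18.4. Neighbours in this order were not separated, since smooth muscle-like cells exceeded monocyte-like cells in 9 of 12 mice and monocyte-like exceeded mesothelial-like cells in 7 of 12. The means over both groups hide a turn of the order of monocyte-like and mesothelial-like cells. Among controls the median was 39.5 CPM in monocyte-like and 57.8 CPM in mesothelial-like cells, and among anemic mice it was 133 and 36.2 CPM. On the scale of the edgeR fit, which was made for each class alone, smooth muscle-like cells averaged 132 CPM in controls and 137 in anemic mice. Monocyte-like cells averaged 46.9 and 155 CPM, so the order of these 2 classes was not settled in anemic mice. Stellate-like cells held 38.6 ± 18.0 CPM and granulocyte progenitor-like cells 37.9 ± 29.0, and the first were higher in 9 of 12 mice. Cholangiocyte-like cells held 16.2 ± 8.55 CPM, vascular endothelial-like cells 9.98 ± 6.84 and neutrophil-like cells 5.95 ± 7.95. With called doublets left out, which made up 85.8% of cholangiocyte-like cells, these had no Vcan UMI in 11 mice and neutrophil-like cells held 1.86 CPM. Levels in the other 11 classes were under 2 CPM, sinusoidal endothelial-like cells and macrophage-like cells included, and basophil and mast-like cells had no Vcan UMI in any mouse.

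**Figure D1:**
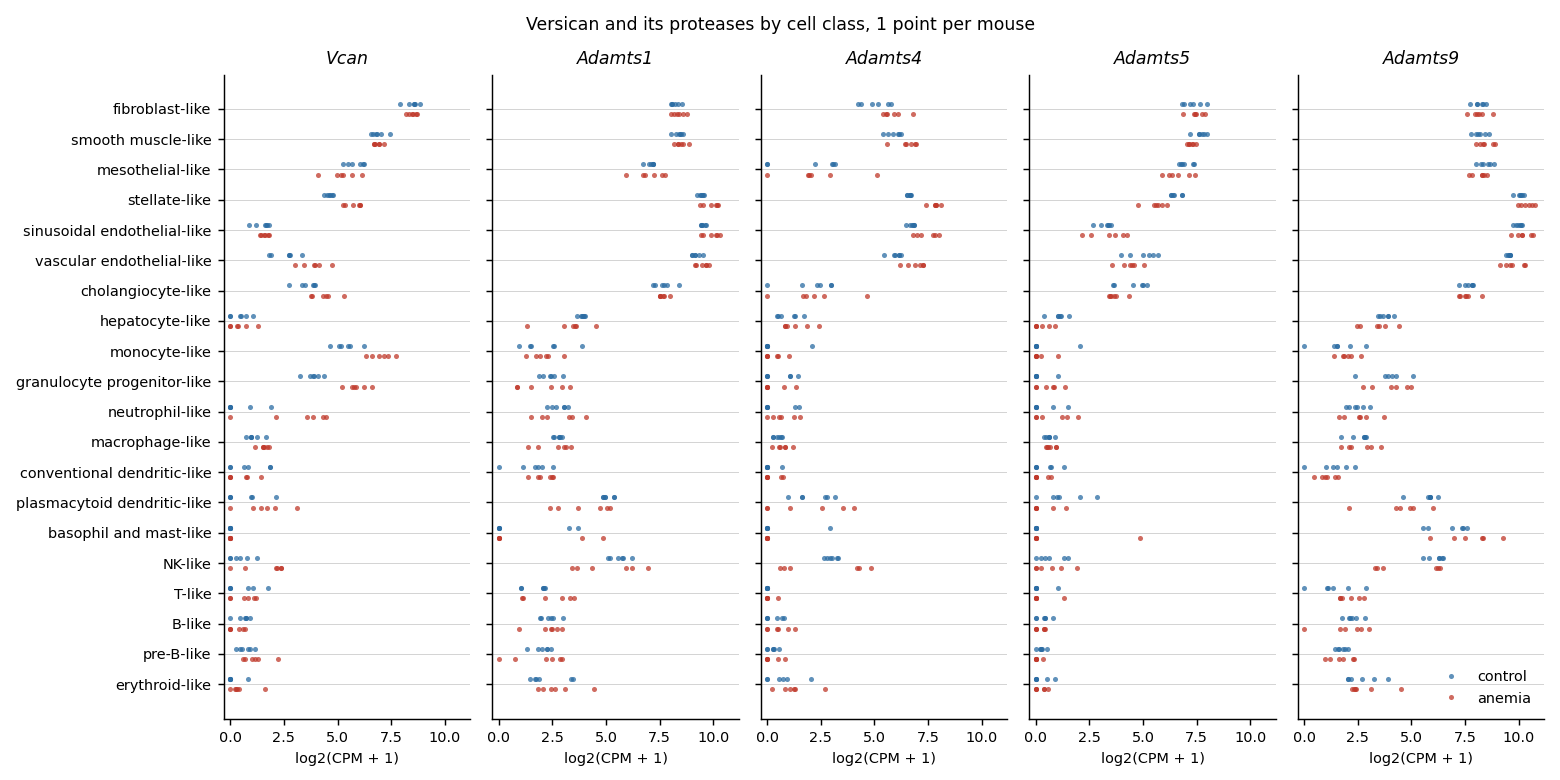
Level of each of the 5 genes in 20 cell classes, as log2(CPM + 1) on the horizontal axis, with 1 point per mouse (blue, 6 control; red, 6 anemia). Vcan reached its highest values in fibroblast-like cells and was present in monocyte-like cells, where the proteases stayed low, while Adamts1, Adamts4 and Adamts9 were highest in sinusoidal endothelial-like and stellate-like cells, called doublets included, and Adamts5 in smooth muscle-like and fibroblast-like cells.

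Myeloid Vcan was higher in anemic mice, which is the pattern for which the gene was picked. In monocyte-like cells, the lowest, median and highest Vcan levels were 23.8, 39.5 and 73.7 CPM in controls and 79.8, 133 and 210 CPM in anemic mice. All 6 anemic mice lay above all 6 controls, as did 0.642% of the 11058 genes tested in this class. The difference was 1.72 on the log2 scale, and 1.78 without anemia 2 and 3. The summed neutrophil markers in these cells ranged from 922 to 1569 CPM in controls and from 809 to 4337 in anemic mice, with 7 of 9 higher, and no defining marker was at 0.

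The monocyte-like class consisted of clusters 9 and 22. Cluster 9, led by Ace, Ccr2 and F13a1, held 1742 control and 5213 anemic cells. Cluster 22, led by Nos2, Ly6i, Clec4e and Saa3, held 44 control and 2942 anemic cells, and 83.5% of its cells came from anemia 2. Within cluster 9 Vcan averaged 42.7 CPM over the controls and 142 CPM over the anemic mice. Without cluster 22 the difference over the class was 1.76 on the log2 scale.

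Granulocyte progenitor-like cells, marked by the granule proteases Elane, Prtn3 and Ctsg, had Vcan levels of 8.47, 13.9 and 19.6 CPM (lowest, median, highest) in controls and 36, 55.9 and 97.6 CPM in anemic mice. The groups did not overlap, as for 0.166% of the 10258 genes tested there in this direction, and the log2 difference was 2.18 (1.95 without anemia 2 and 3). Neutrophil-like cells had few Vcan molecules. Controls had 0 to 2 UMIs per mouse, with none in 4 of 6 mice, and anemic mice had 0, 47, 101, 6, 19 and 10 UMIs. In CPM, the anemic mice had a lowest, median and highest level of 0, 12.2 and 21, and the controls of 0, 0 and 2.77, so that 5 of 6 anemic mice lay above all controls. With called doublets left out, 21 Vcan UMIs remained in anemic neutrophil-like cells and 1 in control cells, the anemic median was 2.53 CPM and 3 of 6 anemic mice lay above all controls. In neutrophil-like cluster 60, of which 98.4% were called doublets, Vcan averaged 1.2 CPM in controls and 49.8 CPM in the 3 anemic mice with at least 20 of its cells. Summed monocyte markers in neutrophil-like cells had medians of 880 CPM in controls and 895 in anemic mice but a highest value of 3043 in anemia. Their part in the neutrophil values was not tested.

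**Figure D2:**
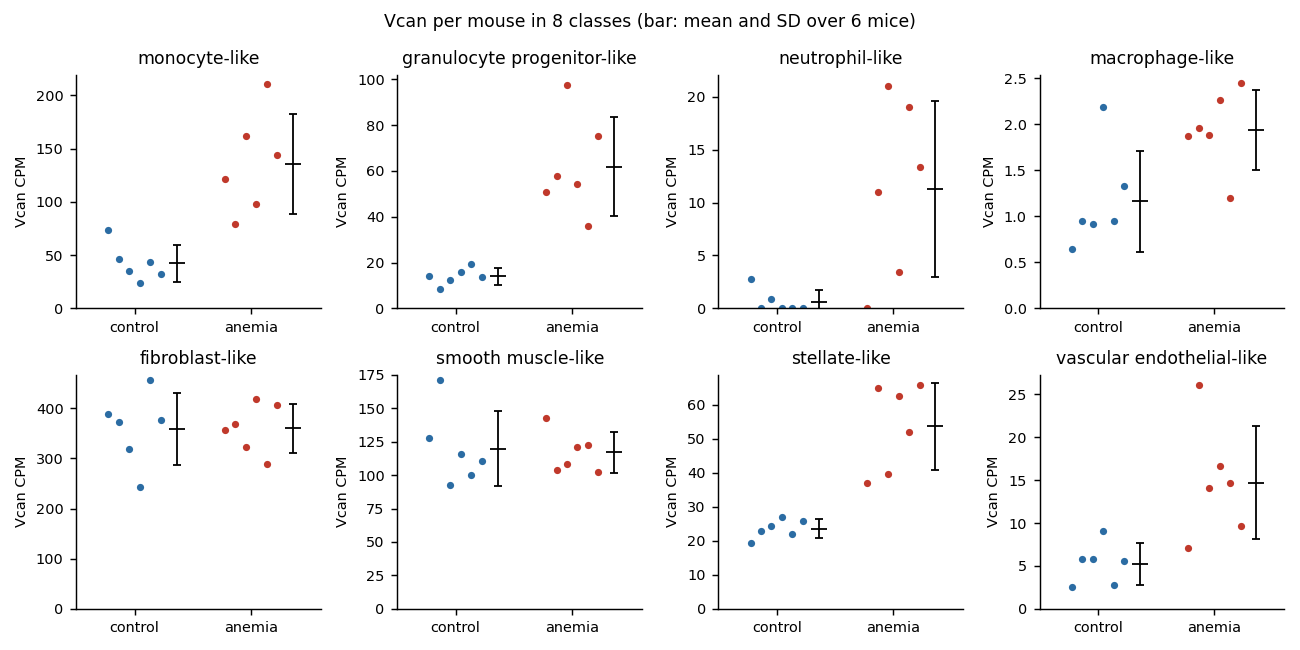
Vcan level in CPM (vertical axis, linear, each panel with its own scale from 0) in 8 cell classes, with 1 point per mouse in the 6 control and 6 anemic mice and a bar for the mean and SD. Anemic mice lie above all controls in monocyte-like, granulocyte progenitor-like and stellate-like cells, whereas the groups overlap in fibroblast-like and smooth muscle-like cells.

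The share of monocyte-like cells with a Vcan UMI, after thinning every cell to 1000 UMIs, averaged 3.71% over control mice (1.68% to 5.13%) and 8.97% over anemic mice (6.46% to 14.2%). Cells under 1000 UMIs were left out, 79 in controls and 125 in anemic mice. The unthinned shares of all cells were 6.33% and 18.5%, at median depths of 2053 and 3386 UMIs. T-like cells, which should lack the gene, gave 0 of 2139 control cells, which allows a share of up to 0.14%, and 0.0838% of the anemic cells, at median depths of 1967 and 2316 UMIs, both before thinning. The share in monocyte-like cells was thus above this background in both groups. In neutrophil-like cells it was 0 of 2528 thinned control cells, which allows up to 0.119%, and 0.626% of the anemic cells. Intervals and limits of this kind cover counting error only.

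The classes that held the liver's Vcan molecules also differed between the groups. Monocyte-like cells held 5.23% of the Vcan UMIs of the control libraries and 38.4% of those of the anemic libraries, whereas fibroblast-like cells held 32.3% and 21.6%. This shift came unevenly from the mice. Monocyte-like cells held 71.7% of the Vcan UMIs in anemia 2, 62.6% in anemia 3 and 29.4% in anemia 5, but 7.72% to 14.1% in the other 3 anemic mice, against 2.41% to 10.7% in controls. Anemia 2 and 3, with the highest shares, also had the most monocyte-like cells, whereas the other 4 anemic mice had 248 to 472 of them and controls 242 to 445.

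**Figure D3:**
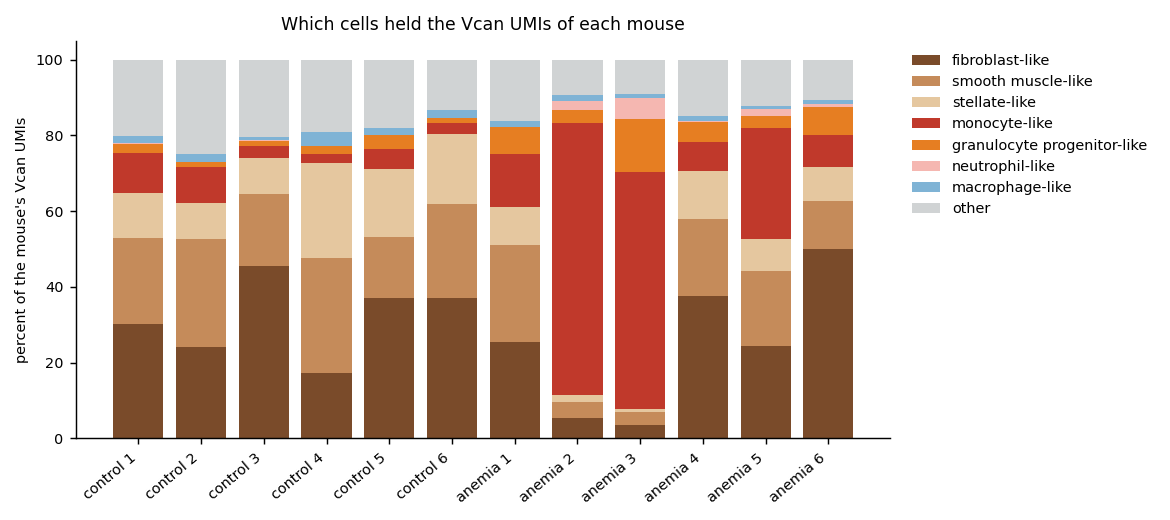
Percent of each mouse's Vcan UMIs (vertical axis) that fell in each cell class, as 1 stacked bar for each of the 12 mice. The monocyte-like share reached 71.7% and 62.6% in anemia 2 and 3, and was at most 29.4% in the other 10 mice.

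Summed over all cells, Vcan was also higher in the anemic liver. Levels were 7.27, 9.03 and 13.6 CPM (lowest, median, highest) in controls and 14.0, 22.2 and 27.1 CPM in anemic mice, without overlap, which held in this direction for 2.57% of the 21188 genes tested. The difference was 1.44 on the log2 scale, and 1.17 without anemia 2 and 3. These sums hold the monocyte-like and neutrophil-like counts by which Vcan was chosen, so no test is given. In such sums, fewer cells of a type and less RNA per cell cannot be told apart.

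Outside the myeloid classes, Vcan rose in stellate-like cells, the pericytes of the sinusoid that store vitamin A. Controls had Vcan levels of 19.4, 23.7 and 26.9 CPM (lowest, median, highest) and anemic mice 37.2, 57.3 and 65.8 CPM. The 6 anemic mice were above the 6 controls, as for 1.85% of the 13658 genes tested in this class. The log2 fold change was 1.28 (SE 0.14), with an edgeR adjusted p of 1.43e-05. The class held only 882 anemic cells against 2115 control cells, 55 of them in anemia 2 and 28 in anemia 3, and without these 2 mice the value was 1.28 (adjusted p = 1.81e-05, edgeR).

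Stellate-like cells also carried sinusoidal endothelial RNA, and 64.2% of them were called doublets. The 8 summed sinusoidal endothelial markers there ranged from 4470 to 5491 CPM in controls and from 4542 to 6202 in anemic mice, with 6 of 8 higher, and Stab2 and Lyve1 among them were not at 0. The 9 stellate markers ranged from 7528 to 10739 CPM in controls and from 3635 to 8626 in anemic mice, with 2 of 9 higher. The class joined cluster 39, with 35.9% called doublets, and cluster 40, with 93.5%. In cluster 39 Vcan averaged 39.4 CPM in controls and 120 CPM in anemic mice, and in cluster 40 it averaged 20.4 and 40.6 CPM. With clusters of over 90% called doublets left out, the Vcan log2 fold change was 1.78 (adjusted p = 2.17e-06, edgeR, 6 control and 5 anemic mice). Over all mice, Vcan was at 360 CPM in fibroblast-like and 1.92 CPM in sinusoidal endothelial-like cells. The part of fibroblast RNA in the stellate-like Vcan values was not tested.

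Vascular endothelial-like cells had less Vcan, with 2.49, 5.69 and 9.13 CPM (lowest, median, highest) in controls and 7.1, 14.4 and 26.1 CPM in anemic mice. Of the anemic mice, 5 of 6 lay above all controls. Vcan had a log2 fold change of 1.50 (SE 0.35, edgeR adjusted p = 0.0292). This call was lost without anemia 2 and 3 (1.23, adjusted p = 0.0626) and without each of anemia 4, anemia 5, control 1, control 5 and control 6 alone, where the log2 fold change was 1.35 to 1.51 and the adjusted p 0.0524 to 0.0762. It was also lost with called doublets left out (1.51, adjusted p = 0.268) and with coarser clusters (0.91, adjusted p = 0.411), all in edgeR. The monocyte markers summed to 185 to 299 CPM in the vascular endothelial-like cells of controls and to 205 to 666 in those of anemic mice, with 8 of 9 higher, and their part in this value was not tested.

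Fibroblast-like cells, the class with the highest Vcan level, gave no difference for any of the 5 genes that passed in edgeR or DESeq2, with 1 of 5 at an unadjusted p under 0.05. They had 243, 375 and 456 CPM of Vcan (lowest, median, highest) in controls and 289, 362 and 418 CPM in anemic mice. The groups overlapped fully, and the log2 fold change was 0.05 (95% interval −0.23 to 0.32). In this class, with 44 to 254 cells per mouse, 0.0779% of 10271 genes passed. In smooth muscle-like cells, where 0.857% of genes passed, the Vcan log2 fold change was 0.07 (95% interval −0.19 to 0.32). Vcan also missed the threshold in macrophage-like cells (log2 fold change 0.81, edgeR adjusted p = 0.118) and NK-like cells (2.72, adjusted p = 0.169), where 2.86% and 0.125% of all genes passed. Without called doublets, NK-like cells held a mean of 0.277 CPM of Vcan in controls and 0.361 CPM in anemic mice, from 4 and 7 UMIs, with 0 anemic mice above every control.

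Adamts1, a protease first described as induced by inflammation, was an endothelial and perivascular gene. Its level was 861 ± 213 CPM (SD, n = 12) in sinusoidal endothelial-like cells, the lining of the liver's capillaries, and 830 ± 206 CPM in stellate-like cells. The first exceeded the second in 8 of 12 mice, so the 2 classes were not separated. With called doublets left out, however, the means were 861 CPM in sinusoidal endothelial-like and 572 CPM in stellate-like cells. Vascular endothelial-like cells followed with 659 ± 126 CPM, and smooth muscle-like and fibroblast-like cells with 346 ± 52.0 and 318 ± 55.3 CPM. Below the NK-like class, at 49.2 ± 31.8 CPM, levels were 26.1 CPM or less, and with called doublets left out the NK-like level itself was 3.95 CPM. Adamts1 in monocyte-like cells was at 4.09 CPM.

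In anemia, Adamts1 rose in sinusoidal endothelial-like cells. Controls had 687, 710 and 807 CPM (lowest, median, highest) and anemic mice 690, 1039 and 1263 CPM. The anemic mice fell into higher and lower values, with anemia 2 and 3 at 690 and 742 CPM within the control range and the other 4 at 943 to 1263 CPM above it. The log2 fold change was 0.56 (SE 0.13, edgeR adjusted p = 0.0087), and 0.73 without anemia 2 and 3 (adjusted p = 5.74e-05). Of the 5 genes, Adamts1 and Adamts4 passed in this class, where 18.3% of 16096 genes did. Different clusters held most of the class in the 2 groups, however. Cluster 2, led by Ldlrad2 and Clec4g, had 6967 control and 2133 anemic cells, and cluster 8, led by Fgf23, Cfap69 and Adam23, had 3607 and 4600. In cluster 2 Adamts1 averaged 649 ± 36.4 CPM over the controls and 591 ± 216 CPM over the anemic mice (SD, n = 6 mice each). In cluster 8, where its level was higher, the averages were 885 ± 53.9 and 1162 ± 305 CPM. The groups overlapped in both clusters, and the part of the uneven clusters in the rise over the class was not tested.

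In stellate-like cells the Adamts1 levels were 601, 705 and 749 CPM (lowest, median, highest) in controls and 670, 1025 and 1180 CPM in anemic mice, with 4 of 6 anemic mice above all controls. The log2 fold change was 0.57 (SE 0.13, edgeR adjusted p = 0.011). That call was lost when clusters of over 90% called doublets were left out (0.28, adjusted p = 0.435) and when called doublets were left out (0.46, adjusted p = 0.0981, 4 anemic mice). In cluster 39 Adamts1 averaged 483 CPM in controls and 537 in anemic mice, and in cluster 40 it averaged 741 and 1050 CPM. Vascular endothelial-like cells had 512, 569 and 743 CPM of Adamts1 in controls and 566, 754 and 891 CPM in anemic mice, and the log2 fold change of 0.37 missed the threshold (edgeR adjusted p = 0.137). It passed without anemia 2 and 3 (0.50, adjusted p = 0.0325). The anemia effect on Adamts1 was not shown to differ between vascular and sinusoidal endothelial-like cells (difference −0.14 on the log2 scale, SE 0.08, adjusted p = 0.63 in an edgeR fit with mouse as a block, in which 0.781% of 14982 genes passed).

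Summed over whole libraries, Adamts1 had 205 to 297 CPM in controls, but 93.5 and 89.4 CPM in anemia 2 and 3 and 274 to 352 CPM in the other anemic mice. Its log2 fold change was 0.27 (adjusted p = 0.611, edgeR, where 6.93% of all genes passed) with all mice and 0.63 (adjusted p = 0.00158) without these 2, which also had the fewest sinusoidal endothelial-like cells. Adamts4 over whole libraries was 0.71 (edgeR adjusted p = 0.203) with all mice, and of 8 alternatives it passed in that without anemia 2 and 3 alone (1.09, adjusted p = 0.000231).

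Adamts4, one of the aggrecanases that also cut versican, gave the most uniform rise among the proteases. Its level was 162 ± 70.4 CPM (SD, n = 12) in stellate-like cells, 143 ± 57.3 in sinusoidal endothelial-like cells and 92.0 ± 38.5 in vascular endothelial-like cells. The first 2 classes were not separated, with stellate-like cells higher in 7 of 12 mice, and their order turned with called doublets left out (114 and 140 CPM). In stellate-like cells, Adamts4 levels were 91.5, 101 and 102 CPM (lowest, median, highest) in controls and 167, 229 and 274 CPM in anemic mice, without overlap. In edgeR the log2 fold change was 1.30 (SE 0.10), with an edgeR adjusted p of 2.58e-07, and 1.83 with clusters of over 90% called doublets left out (adjusted p = 0.000755). Cluster 39 averaged 45.5 CPM of Adamts4 in controls and 145 in anemic mice, and cluster 40 averaged 110 and 239 CPM, so that both parts of the class moved the same way.

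In sinusoidal endothelial-like cells, controls had 87.5, 108 and 115 CPM of Adamts4 (lowest, median, highest) and anemic mice 112, 177 and 261 CPM. Of the anemic mice, 5 of 6 lay above all controls, and the log2 fold change was 0.89 (SE 0.17, edgeR adjusted p = 0.00296). In cluster 2, which held most of the control cells of the class, Adamts4 averaged 91.1 ± 11.4 CPM in controls and 112 ± 38.3 CPM over the anemic mice (SD, 6 mice per group). In cluster 8, which held most of the anemic cells, it averaged 128 ± 13.8 and 206 ± 74.3 CPM, and the part of this shift between clusters was not tested. Vascular endothelial-like cells had 42.8, 64.7 and 74.2 CPM in controls and 72.0, 128 and 153 CPM in anemic mice, again with 5 of 6 above all controls. There the log2 fold change was 1.05 (SE 0.17, edgeR adjusted p = 0.00342), in a class where 2.45% of 12187 genes passed and, of the 5 genes, Adamts4 and Vcan did. Without anemia 2 and 3 the values were 1.10 and 1.23 (adjusted p = 5.38e-05 and 0.00013, edgeR). In smooth muscle-like cells, Adamts4 was 62.2 CPM at the median of controls and 95.9 in anemic mice, and its log2 fold change of 0.72 missed the threshold (edgeR adjusted p = 0.0787). Of 11 alternatives it passed in 5, the replicate block among them (0.71, adjusted p = 0.0207). With coarser clusters, which left 502 cells in this class, it was 0.38 (adjusted p = 0.847). Among fits on 11 mice it passed in 1 of 12, that without anemia 2 (0.82, adjusted p = 0.013). Called doublets made up 72.7% of this class, and without them Adamts4 was 1.42 (adjusted p = 0.0254, edgeR, 4 anemic mice).

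**Figure D4:**
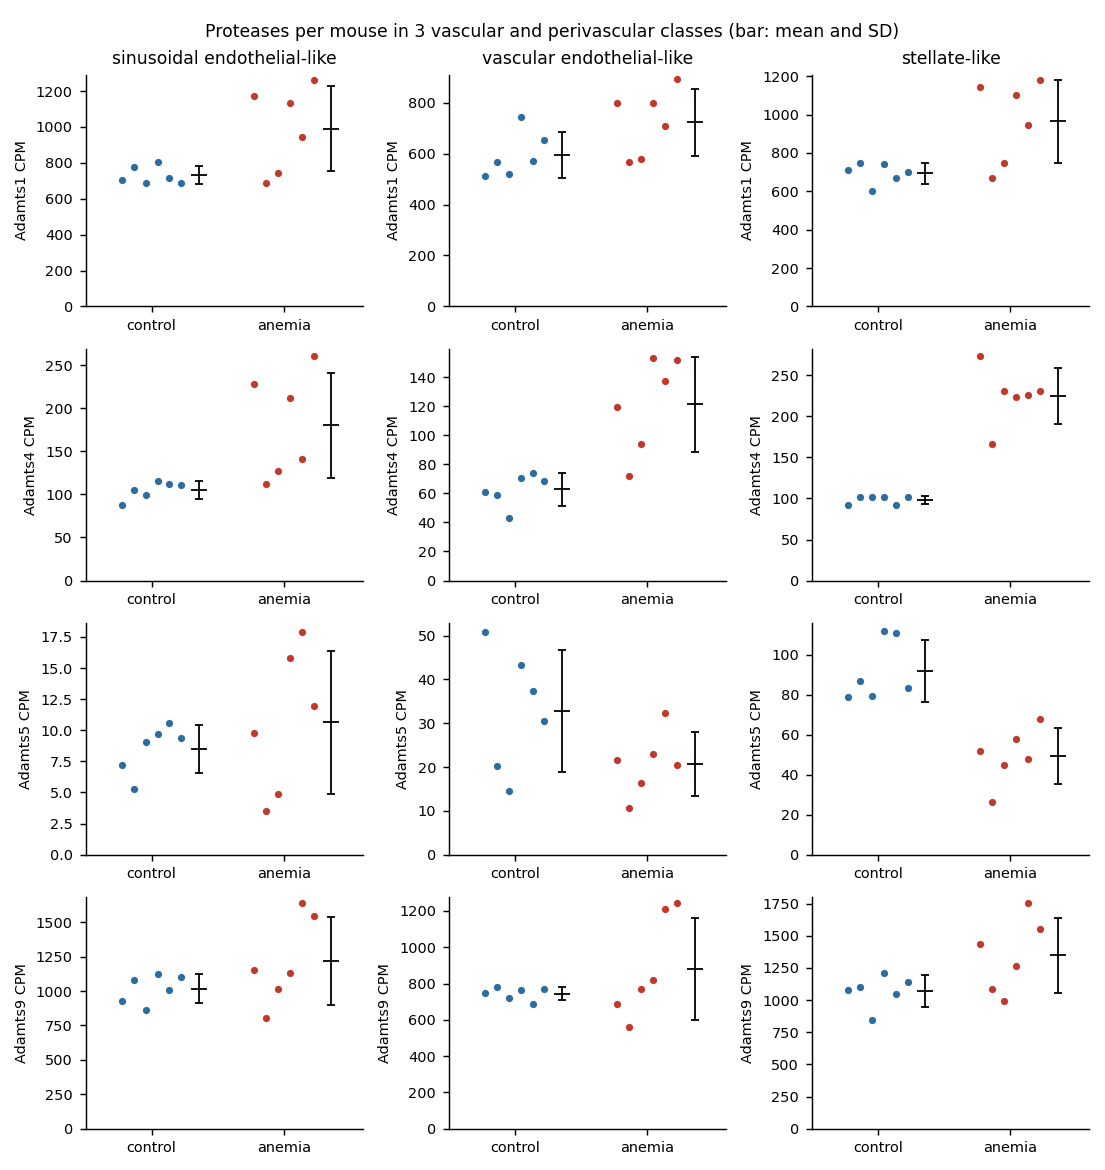
Level in CPM (vertical axis, linear from 0, each panel with its own scale) of the 4 proteases in sinusoidal endothelial-like, vascular endothelial-like and stellate-like cells, with 1 point per mouse in the 6 control and 6 anemic mice and a bar for the mean and SD. Adamts4 lies above the controls in 6 of 6 anemic mice in stellate-like cells and in 5 of 6 in both endothelial classes, and Adamts5 lies below them in 6 of 6 in stellate-like cells.

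Adamts5, the neighbour of Adamts1 and a major aggrecanase of cartilage, had a mesenchymal pattern. Its level was 178 ± 39.7 CPM (SD, n = 12) in smooth muscle-like cells and 173 ± 46.5 in fibroblast-like cells, each higher than the other in 6 of 12 mice. Mesothelial-like cells held 116 ± 37.5 CPM, stellate-like cells 70.6 ± 26.3 and vascular endothelial-like cells 26.8 ± 12.3. Sinusoidal endothelial-like cells held 9.58 ± 4.25 CPM, against 861 CPM of the neighbouring gene Adamts1. Both genes were found in smooth muscle-like and fibroblast-like cells, where Adamts1 held 346 and 318 CPM.

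Adamts5 was the 1 of the 5 genes that fell, among the classes described here. Stellate-like cells had 78.7, 85.1 and 112 CPM of Adamts5 (lowest, median, highest) in controls and 26.3, 49.8 and 68.0 CPM in anemic mice. All anemic mice lay below all controls, as for 1.84% of genes in this direction. This was a log2 fold change of −0.74 (SE 0.15, edgeR adjusted p = 0.00496), −0.62 without anemia 2 and 3 (adjusted p = 0.00766) and −0.83 with clusters of over 90% called doublets left out (adjusted p = 0.0158). With called doublets left out it was −0.74 with 4 anemic mice and missed the threshold (adjusted p = 0.0629). In cluster 39 Adamts5 averaged 186 CPM in controls and 90.9 in anemic mice, and in cluster 40 it averaged 71.1 and 42.3 CPM. Most stellate markers were also lower in this class in anemia, as given above, and their part in the Adamts5 value was not tested. In these same stellate-like cells 4 of the 5 genes passed, Vcan, Adamts1 and Adamts4 higher and Adamts5 lower in anemia, where 6.22% of all genes passed.

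In the other classes described here Adamts5 did not pass in edgeR. Its log2 fold change was −0.36 in smooth muscle-like cells (adjusted p = 0.206), −0.51 in vascular endothelial-like cells (adjusted p = 0.386) and 0.15 in fibroblast-like cells (95% interval −0.25 to 0.55). In sinusoidal endothelial-like cells it was 0.49 (adjusted p = 0.273) with all mice and 0.81 (adjusted p = 0.00905) without anemia 2 and 3, at levels of 3.48 to 17.9 CPM in anemic mice.

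Adamts9, a protease of vessels and of tissue remodelling in development, was highest in the same vascular and perivascular classes. Its level was 1210 ± 257 CPM (SD, n = 12) in stellate-like cells, 1117 ± 249 in sinusoidal endothelial-like cells and 813 ± 205 in vascular endothelial-like cells. Stellate-like exceeded sinusoidal endothelial-like cells in 10 of 12 mice, and these exceeded vascular endothelial-like cells in 12 of 12. With called doublets left out the first order turned, at 756 CPM of Adamts9 in stellate-like and 1093 CPM in sinusoidal endothelial-like cells. Smooth muscle-like, mesothelial-like and fibroblast-like cells held 326 ± 77.2, 322 ± 72.3 and 290 ± 67.9 CPM. Basophil and mast-like cells, where the other 4 genes were near 0, held 196 ± 160 CPM of Adamts9 from 242 UMIs.

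In anemia, Adamts9 did not pass in edgeR in the classes described here. In sinusoidal endothelial-like cells it was 861, 1046 and 1126 CPM (lowest, median, highest) in controls and 807, 1142 and 1642 CPM in anemic mice. The log2 fold change of 0.37 (SE 0.14, adjusted p = 0.0807) passed without anemia 2 alone (0.45, adjusted p = 0.0221), without anemia 2 and 3 (0.53, adjusted p = 0.00539), and in DESeq2 (0.38, adjusted p = 0.0495). In stellate-like cells it was 0.43 (SE 0.13, edgeR adjusted p = 0.0623), and it passed without anemia 2 (0.48, adjusted p = 0.0374) or anemia 3 (0.50, adjusted p = 0.0202) alone. It was 0.15 without clusters of over 90% called doublets (adjusted p = 0.789) and 0.29 without called doublets (adjusted p = 0.671), and 3 of 12 alternatives passed. Without called doublets the stellate-like mean of Adamts9 was 798 CPM in controls and 714 CPM in anemic mice, of which 1 lay above and 3 below every control. Unlike the fit, these means and counts were not limited to mice with at least 20 cells of the class. In vascular endothelial-like cells the controls had 685, 755 and 779 CPM of Adamts9, and the anemic mice spread from 563 to 1243 CPM with a median of 793, on both sides of the controls. There the difference on the log2 scale was 0.33 (adjusted p = 0.346, edgeR), and the difference from the sinusoidal effect was −0.03 (SE 0.08, adjusted p = 0.959).

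Adamts1 and Adamts9 were found in the same cells, as well as in the same class. Of 22632 sinusoidal endothelial-like cells, 15093 had an Adamts1 UMI, 14975 an Adamts9 UMI and 12144 both. Cells with many UMIs show any gene more often, so these counts are a description. Vcan and the proteases met mainly in mesenchymal cells. Called doublets made up 47.4% of fibroblast-like cells. Of 802 fibroblast-like cells with a Vcan UMI, 744 had a UMI of at least 1 protease, but of 1624 such monocyte-like cells only 28 did. Among all cells of these classes, with or without Vcan, 1115 of 1231 fibroblast-like and 171 of 9941 monocyte-like cells had a protease UMI.

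**Figure D5:**
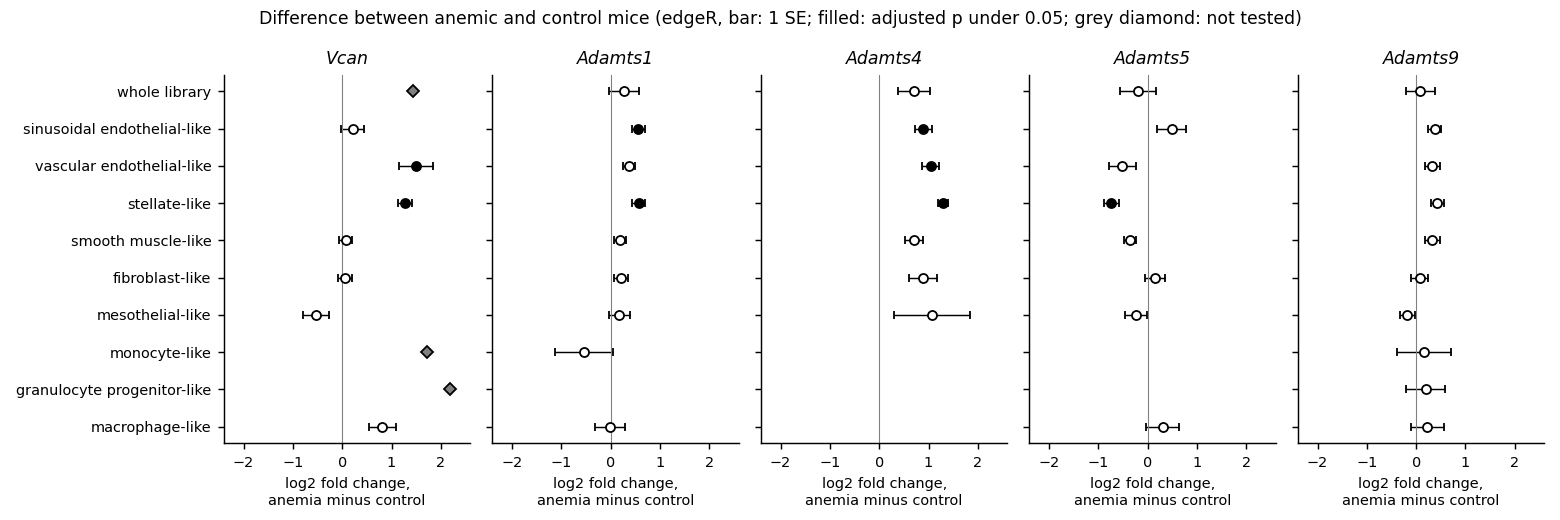
Log2 fold change, anemia minus control (horizontal axis), of the 5 genes in whole libraries and 9 classes, with bars of 1 SE from edgeR. Filled points had an adjusted p under 0.05, open points did not, grey diamonds are the described and untested Vcan values, and an empty place is a gene that was not tested there. Vcan, Adamts1 and Adamts4 lie to the right and Adamts5 to the left of 0 in stellate-like cells.

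Some immediate early genes, which dissociation and stress can induce, also passed. In sinusoidal endothelial-like cells the list's summed level had a median of 5511 CPM in controls (4662 to 6193) and 6064 CPM in anemic mice (4187 to 8316), with 8 of 12 higher and overlapping groups. Of the 12, 4 rose and 0 fell in edgeR, where 18.3% of all genes passed, with log2 fold changes of 0.80 for Hspa1a, 0.56 for Jun and 0.50 for Fos. Hspa1a was lost with sex as a covariate (0.62, adjusted p = 0.0631), and Fos with sex (0.38, adjusted p = 0.11), with the replicate number as a block (0.47, adjusted p = 0.0831) and without TMM factors (0.40, adjusted p = 0.084). Fos was also lost without each of anemia 1, 5 and 6 and control 1, 4, 5 and 6, with adjusted p of 0.0552 to 0.0762. In stellate-like cells 2 of the 12 rose, Zfp36 (0.71, adjusted p = 0.0125) and Atf3 (0.40, adjusted p = 0.0148), neither of them with called doublets left out (adjusted p = 0.142 and 0.717). In vascular endothelial-like cells Atf3 alone rose (0.40, adjusted p = 0.0482), a call lost in 10 of 12 fits on 11 mice (adjusted p up to 0.107). The part of these genes in the Adamts1 and Adamts4 values was not tested.

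The next list held inhibitors, cofactors and clearance receptors of the proteases, and the proprotein convertases Furin and Pcsk6. Its genes moved both ways in sinusoidal endothelial-like cells. Of 11 genes, 10 were tested, 4 rose and 2 fell, and the median log2 fold change was 0.55 against 0.00 for all genes, of which 18.3% passed. Timp1, a secreted metalloprotease inhibitor, averaged 1.59 CPM in controls and 6.23 in anemic mice, on the scale of the edgeR fit, with a log2 fold change of 1.86 (adjusted p = 0.00164). Timp2, another inhibitor, averaged 14.7 and 5.41 CPM and fell by 1.41 (adjusted p = 1.09e-05). Thbs1, which encodes a matrix glycoprotein, rose by 1.28 (adjusted p = 0.021, all in edgeR), a call lost in limma's weighted fit (adjusted p = 0.15). Timp3, the inhibitor named above, rose by 0.78 (edgeR adjusted p = 0.000574) and is given for its role, outside the rule for named genes.

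In stellate-like cells, the same list gave 4 genes higher and 2 lower of 10 tested, with a median log2 fold change of 0.02, where 6.22% of all genes passed. Pcsk6, a proprotein convertase, rose by 1.59 (adjusted p = 0.000212, edgeR) and Papln, which encodes papilin, fell by 1.02 (adjusted p = 0.000824). The Papln call was lost with called doublets left out (−0.22, adjusted p = 0.953) and with clusters of over 90% called doublets left out (−0.42, adjusted p = 0.753). Timp1 rose by 1.76 (adjusted p = 0.0256), a call that was lost without anemia 5, anemia 6, control 1, control 4 or control 5, where its adjusted p was 0.0501 to 0.0626. The part of sinusoidal endothelial RNA in the stellate-like Timp1 value was not tested. In macrophage-like cells only Sdc4, a syndecan, rose of 8 tested (0.64, adjusted p = 0.0439), and that call did not hold in 9 of 12 edgeR fits on 11 mice, with an adjusted p of up to 0.103. In vascular endothelial-like, monocyte-like and fibroblast-like cells 0 of 10, 8 and 9 tested genes passed in edgeR, against 4, 1 and 1 at an unadjusted p under 0.05 and 1, 0 and 0 in DESeq2.

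Among receptors of versican, its fragments or hyaluronan, 1 rose and 1 fell of 14 tested in sinusoidal endothelial-like cells, a share below the 18.3% of all genes. Selp, the P-selectin of activated endothelium, averaged 39.5 CPM in controls and 171 in anemic mice, with a log2 fold change of 2.13 (edgeR adjusted p = 3.3e-05). Selplg, which encodes the ligand of P-selectin, averaged 47.0 and 22.0 CPM and fell by 1.08 (adjusted p = 8.7e-07). In stellate-like cells 3 rose and 1 fell of 14, where 6.22% of all genes passed. Selp rose there by 1.88 (adjusted p = 1.98e-05) and Egfr by 0.70 (adjusted p = 0.027), while Cd44, the main hyaluronan receptor, rose by 0.93 (adjusted p = 0.0373). Called doublets made up 64.2% of this class, and the part of sinusoidal endothelial RNA in its Selp value was not tested. The Cd44 call was lost with called doublets left out (0.12, adjusted p = 0.974) and without anemia 2, 3 or 5 or control 3, 4, 5 or 6 (adjusted p up to 0.109) and the Egfr call without anemia 5 or control 1, 3 or 4 (adjusted p up to 0.0804). In monocyte-like cells 0 of 14 receptors passed, where 1.05% of all genes did, and in macrophage-like cells 0 of 15. At an unadjusted p under 0.05 in edgeR the numbers were 6 and 6, and in DESeq2 1 and 3 passed after adjustment. In vascular endothelial-like cells Selplg alone passed of 12, and fell by 0.79 (adjusted p = 0.0295), a call lost in 8 of 12 fits on 11 mice.

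Hyaluronan, the partner of versican, gave 0 genes higher and 3 lower of 8 tested in its synthesis and breakdown in sinusoidal endothelial-like cells, where 18.3% of all genes passed. All 3 belong to the hyaluronidase family, which includes enzymes that degrade hyaluronan. Hyal3 fell by 0.88 (edgeR adjusted p = 0.00497), Hyal1 by 0.71 (adjusted p = 0.00348) and Hyal2 by 0.31 (adjusted p = 0.0389). The Hyal2 call did not hold in 9 of 12 fits on 11 mice, with an adjusted p of up to 0.096, and without anemia 2 and 3 (−0.24, adjusted p = 0.118). Of 6 tested genes that crosslink hyaluronan, Itih2, a heavy chain of the inter-alpha-trypsin inhibitor made by hepatocytes, fell by 1.13 (adjusted p = 0.0257), in a class in which hepatocyte markers were lower as given above. It was lost without control 3 or control 4 (adjusted p = 0.0537 and 0.0509). In edgeR 0 of these genes passed in the vascular endothelial-like and stellate-like classes. At an unadjusted p under 0.05 there were 1 and 4 of the synthesis and breakdown genes and 2 and 2 of the crosslinking genes, and DESeq2 called 1 gene, of synthesis and breakdown in stellate-like cells.

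Chondroitin sulfate chains are built on versican and other core proteins by a shared set of enzymes. Of 15 such genes, 2 rose and 0 fell in sinusoidal endothelial-like cells, a share below the 18.3% of all genes. Xylt1, the enzyme that starts the chain, averaged 111 CPM in controls and 276 in anemic mice, with a log2 fold change of 1.31 (edgeR adjusted p = 0.000726), and Chst11, which adds sulfate, rose by 1.04 (adjusted p = 0.00188). Both genes also passed in stellate-like cells, with 1.24 for Xylt1 and 0.91 for Chst11 (adjusted p = 0.00152 and 0.0166). Without called doublets, Xylt1 in stellate-like cells was 0.79 (adjusted p = 0.36), and without clusters of over 90% called doublets it was −0.20 (adjusted p = 0.909) and Chst11 was 1.14 (adjusted p = 0.114). Chst11 was also lost there without anemia 4 (0.81, adjusted p = 0.0605). In vascular endothelial-like cells Xylt1 alone of 14 rose (0.98, adjusted p = 0.0471), a call lost in 9 of 12 fits on 11 mice (adjusted p up to 0.117). In macrophage-like cells Chpf, a chondroitin polymerizing factor, alone of 15 rose (1.31, edgeR adjusted p = 0.0411), a call lost in 10 of 12 such fits (adjusted p up to 0.106).

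Matrix partners of versican gave 2 genes higher and 1 lower of 7 tested in sinusoidal endothelial-like cells, where 18.3% of all genes passed. Fbln2, a fibulin that binds versican, fell by 1.08 (edgeR adjusted p = 0.00013), or by 0.56 with coarser clusters (adjusted p = 0.011). In vascular endothelial-like cells, for which it was also a naming marker, Fbln2 fell by 0.53 (adjusted p = 0.00512). The call of Fbln2 in vascular endothelial-like cells was lost with coarser clusters (−0.48, adjusted p = 0.0544) and with called doublets left out (−0.85, adjusted p = 0.139). In sinusoidal endothelial-like cells Fn1, fibronectin, rose by 0.99 (adjusted p = 0.0285) and Fbn1, fibrillin, by 0.80 (adjusted p = 0.0456). Fn1 was also a naming marker of monocyte-like cells, and the part of monocyte RNA in its value was not tested. Fn1 was lost with the replicate block (0.88, adjusted p = 0.0675) and without anemia 2 or 4 or control 1, 2 or 4 (adjusted p up to 0.0649), and Fbn1 was lost in 8 of 12 such fits (adjusted p up to 0.0993) and was 0.28 without anemia 2 and 3 (adjusted p = 0.201). Of the other secreted ADAMTS genes, Adamts10 alone of 9 passed in sinusoidal endothelial-like cells, a share below that of all genes, and fell by 0.40 (adjusted p = 0.00459). It also fell by 0.59 in stellate-like cells (adjusted p = 0.0231), where 10 were tested, but this was −0.24 without clusters of over 90% called doublets (adjusted p = 0.607) and −0.13 without called doublets (adjusted p = 0.895). The call was also lost with sex as a covariate (−0.53, adjusted p = 0.0769) and without control 4 or control 5 (adjusted p = 0.0564 and 0.0538). Of the 7 other hyalectans and link proteins, 1 was expressed enough to be tested in sinusoidal endothelial-like and in stellate-like cells, and it passed neither in edgeR, at an unadjusted p under 0.05 included, nor in DESeq2.

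Over the 20 named classes, the genes most like each of the 5 were listed by Pearson's r of log2(mean CPM + 1) among 16167 genes, as a description with the classes of the same libraries as points. Vcan was most like Tmem119 (r = 0.86), Map7d3, Tppp3, Pcdh7 and Tnfaip6 (r = 0.85). Adamts1 was most like Amotl1 (r = 0.99), Hspg2, Cdr2l, Sox11 and Rhoj, and Adamts4 like Ldb2 (r = 0.98), Nr2f1, Abcc9, Dchs1 and Ramp2. Adamts5 was most like Bgn (r = 0.98), Gulp1, Klhl29, Pcolce and P3h3, and Adamts9 like Ccdc8 (r = 0.97), Sncaip, Fzd4, Zfp711 and Gja1. Among the 5 genes themselves, r was 0.96 between Adamts1 and Adamts4 and 0.92 between Adamts1 and Adamts9. Vcan had an r of 0.73 with Adamts5 and of 0.44 with Adamts9. For Adamts5, r was 0.86 with Adamts1, 0.83 with Adamts9 and 0.80 with Adamts4.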

How the data were processed

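Single-cell mRNA of 12 neonatal livers was read on a droplet platform. The authors deposited raw UMI counts per gene and cell made with Cell Ranger 7.0.0 (file headers) on mm10, 1 matrix per mouse, in which each barcode had at least 500 UMIs. Per the submitters' processing notes, Seurat was also used. Barcodes were kept between 500 and 50000 UMIs if no more than 50% of these were mitochondrial, and were clustered on 2000 variable genes without the 5 genes (20 components, Leiden resolution 2). Clusters were named from fixed marker lists, with at least 3 markers raised. Doublets were called by simulated pairs and kept, with an alternative without them. The share called was set beforehand for each library, at 0.8% for every 1000 cells. Shares of called doublets per class are therefore not measured doublet rates. UMIs were summed per mouse and class (at least 20 cells, 4 mice per group), without mitochondrial and ribosomal protein genes, and tested where the mean was at least 5 UMIs, with edgeR 4.0.16 (TMM, quasi-likelihood, Benjamini-Hochberg over all genes of the class, 0.05). DESeq2 1.42.0 and limma 3.58.1 were alternatives (R 4.3.3, Python 3.11.15).

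A level in CPM is the gene's UMIs scaled to 1000000 UMIs of the summed class, and intervals are 1.96 SE. Counts of mice above or below all controls use these levels, but the shares of all genes without overlap use TMM-scaled CPM. On that second scale 6 anemic mice lay above all controls for Adamts4 in both endothelial-like classes, and 5 for Adamts1 in stellate-like cells. Totals were 46252146 to 74545930 UMIs per library. The members and gene lists were chosen with earlier results of these data known. Named genes were the 5 members, up to 3 genes per list and class with the largest change among those that passed, in 6 classes, and the 5 genes most like each member. Each fit was repeated without 1 mouse, without anemia 2 and 3, with the replicate number as a block, with sex, without TMM factors, with other filters and with coarser clusters. In simulated counts, the edgeR fit recovered 73 of 100 genes changed by a log2 fold change of 1 in the sinusoidal endothelial-like class (16096 genes), 70 in the stellate-like class (13658 genes) and 71 in the vascular endothelial-like class (12187 genes). Of 100 genes changed by 2 it recovered 94, 99 and 97, and it called 9, 15 and 8 unchanged genes. The simulation held no outlying mice and no difference between the groups in clusters or foreign RNA. These counts are therefore not error rates of the real classes. Each library is 1 mouse, and p-values measure the spread between these mice. The whole-library fit was planned as a test for all 5 genes, but its Vcan value is given as a description.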

Additional observations from a re-analysis of the deposited data

Results flagged for a closer look

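Of 81 groups of 6 mice examined over the 5 genes, 1 held a mouse far from the rest, where chance gives about 1 in 20. In mesothelial-like cells, Adamts4 was 33.5 CPM in anemia 5, from 34 UMIs, while the other 5 anemic mice had 0 to 6.68 CPM. Called doublets made up 82.8% of this class, and without them 1 Adamts4 UMI remained in its anemic cells, at 1.56 CPM in 1 mouse.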

How the results depend on the processing

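Values here are log2 fold changes, anemia minus control, from edgeR unless another tool is named. Without anemia 2 and 3, an alternative chosen after seeing the data, whole libraries passed for Adamts1 (0.63, against 0.27 with all mice) and Adamts4 (1.09, against 0.71 and adjusted p = 0.203 with all mice), Adamts9 passed in sinusoidal endothelial-like (0.53) and stellate-like cells (0.58, adjusted p = 0.0034), Vcan in vascular endothelial-like cells no longer passed (1.23), and Adamts5 in whole libraries changed sign to 0.20. With called doublets left out, Vcan in vascular endothelial-like (1.51), Adamts1 in stellate-like (0.46) and Adamts5 in stellate-like cells (−0.74) missed the threshold, Vcan changed sign in sinusoidal endothelial-like (−0.041) and smooth muscle-like cells (−0.31), and the mean level moved to 182 CPM for Vcan in smooth muscle-like cells and to 572 and 756 CPM for Adamts1 and Adamts9 in stellate-like cells. Without clusters of over 90% called doublets, also chosen after seeing the data, Adamts1 (0.28) and Xylt1 (−0.20) in stellate-like cells were lost. With coarser clusters, Vcan was 0.91 in vascular endothelial-like and −0.29 in smooth muscle-like cells, and Adamts5 was −0.14 in fibroblast-like cells. The coarser clusters named 502 smooth muscle-like and 3083 fibroblast-like cells, against 2341 and 1231 in the main clusters. Without TMM factors, Vcan was −0.017 in smooth muscle-like cells and Adamts9 −0.13 in whole libraries, and with sex as a covariate they were −0.012 and −0.0031. Adamts9 passed in DESeq2 in sinusoidal endothelial-like (0.38) and stellate-like cells (0.43, adjusted p = 0.0241), and with limma's weighted fit (0.33 and 0.39), but in stellate-like cells it was 0.15 without clusters of over 90% doublets (adjusted p = 0.789) and its mean without doublets was 798 CPM in controls and 714 CPM in anemic mice. Unlike the fits, these means without doublets were not limited to mice with at least 20 cells of the class. The causes were not tested.

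Leaving out 1 mouse at a time gave ranges of −0.038 to 0.13 for Vcan in fibroblast-like cells and 1.26 to 1.71 in vascular endothelial-like cells, −0.00093 to 0.31 for Adamts1 in mesothelial-like cells, and for Adamts9 −0.091 to 0.15 in fibroblast-like cells, 0.27 to 0.45 in sinusoidal endothelial-like cells, 0.34 to 0.50 in stellate-like cells and −0.090 to 0.25 in whole libraries. In all 12 such fits, Vcan in stellate-like cells (1.21 to 1.38) and Adamts4 in stellate-like (1.23 to 1.37), sinusoidal (0.77 to 0.99) and vascular endothelial-like cells (0.96 to 1.15) passed. The share of monocyte-like cells with a Vcan UMI, as a mean over mice, was 8.02% in controls and 17.5% in anemic mice at 2000 UMIs and 6.05% and 19.7% unthinned.

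Replicate numbers were not taken as pairs in the main fits. Same-numbered mice deviated together with correlations of −0.192 to 0.549 in whole libraries, and in 1 of 6 pairs a mouse was most like its own number. The correlations were −0.0723 to 0.51 in sinusoidal endothelial-like and 0.0176 to 0.419 in monocyte-like cells. They cannot tell whether same-numbered mice shared a litter. With the replicate number as a block, Adamts9 in whole libraries was −0.067, and of the 5 genes' calls the block changed that of Adamts4 in smooth muscle-like cells. It also ended the calls of Fn1, Fos and Hyal2 in sinusoidal endothelial-like, Chpf in macrophage-like and Atf3 in vascular endothelial-like cells (adjusted p = 0.0553 to 0.0831).

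The number of genes that passed was 1468 in whole libraries against 2687 in DESeq2, 5016 without TMM factors (447 higher, against 673), 2865 without anemia 2 and 3, 904 with sex, and 708 to 1541 with 1 mouse left out. It was 849 in stellate-like cells against 164 without doublets and 221 without clusters of over 90% doublets. In vascular endothelial-like cells it was 298 against 94 with coarser clusters, 91 without doublets, 173 with sex, 196 with at least 50 UMIs, 447 in DESeq2 and 618 in limma. In monocyte-like cells it was 116 against 27 with coarser clusters, 394 with the block and 209 in DESeq2. Without TMM factors, 801 of 3584 genes in sinusoidal endothelial-like cells were higher, against 1300 of 2951, 387 of 987 in stellate-like cells against 482 of 849, and 111 of 410 in vascular endothelial-like cells against 150 of 298. The median of all genes then moved by −0.10 in sinusoidal endothelial-like cells and −0.21 in whole libraries. Neutrophil-like Vcan counts were under the filter for a fitted value without anemia 2 and 3 or without doublets, where the mean level was 0.289 CPM in controls and 3.43 CPM in anemic mice without doublets.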

Other observations

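Among the cells left unnamed, cluster 62, led by Orm1 and Saa1, had 430 cells, of which 75.3% were called doublets. It held 5 Vcan UMIs in control cells and 79 in anemic cells, or 10.2 and 74.4 CPM when the cells of a group were pooled. This difference was not tested.

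Adamts9 in basophil and mast-like cells had a lowest, median and highest level of 46.0, 141 and 194 CPM in controls and 57.7, 244 and 619 CPM in anemic mice. Of the anemic mice, 3 of 6 lay above all controls, and the log2 fold change was 1.13 (edgeR adjusted p = 0.349). With no filter on low counts it was 1.09 (adjusted p = 0.00472), the 1 of 10 alternatives that passed, while the others had an adjusted p of up to 0.982. With 1 mouse left out Adamts9 was 0.68 to 1.37 there and passed in 0 of 12 edgeR fits.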
